A study of Rattus norvegicus with 19 samples.

Results

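The T11 dorsal root ganglia of rats at day 7 after surgery that leads intact nerves to sprout were set against the same ganglia of unoperated rats, on 12 of the 19 arrays of the series. The day 7 group held 7 arrays and the naive group 5, with 1 rat and 1 ganglion per array and no pooling. All animals were adult female Sprague-Dawley rats. In day 7 rats, under pentobarbital, the skin on a single flank had been denervated around the T11 territory by cutting dorsal and lateral cutaneous branches of T9 and T10 above it and of T12 and T13 below it. The T11 skin nerves were left whole, the submitters presume day 7 to be the initiation of their sprouting, and its spread was followed by mapping the cutaneous trunci muscle reflex. RNA of each ganglion went through repeated linear amplification before hybridisation, and a further naive array, removed by the submitters after quality control, is not analysed here. Naive rats had no operation, so the effects of surgery and anaesthesia and those of denervated neighbouring skin cannot be told apart. The sampled T11 ganglion is thus a ganglion whose own skin nerves were spared, and the labels do not say which naive flank was taken. All 31042 probe sets other than controls were described, from an Affymetrix whole-genome rat array, and particular weight was put on genes whose several probe sets lay on the same side of naive and on probe sets whose day 7 and naive arrays did not overlap.

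Collateral sprouting is the growth of new endings by intact axons into neighbouring skin that has lost its nerves. It is known to depend, for nociceptive fibres in rat skin, on nerve growth factor made by the denervated skin. Cutting a sensory axon itself sets off another programme in its cell body, in which transcription factors such as Atf3 and Jun, neuropeptides such as galanin, NPY and VIP, and growth-associated effectors such as Sprr1a are induced. A ganglion also holds satellite glia around the cell bodies, myelinating Schwann cells along the axons, fibroblasts, vessels and resident macrophages, and its RNA is a mixture of all of them. In such a mixture fewer cells of a type and less RNA per cell cannot be told apart.

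The deposited values are log2 expression levels, and a difference of 1 is a doubling of signal. On the 12 arrays they ran from 3.48 to 14.02, array medians lay between 6.70 and 6.74, and no arrays held identical values. Probe sets of 14217 genes carried a single gene symbol. Sensory neuron markers (12 of 12 measured) had array means of 12.03 to 12.30 at day 7 and 12.09 to 12.14 in naive rats, so the defining markers of the labelled tissue were present. The 4 Schwann cell markers read had array means of 11.45 to 11.88 at day 7 and 11.73 to 12.16 in naive rats, and all 4 stood below naive on average. Spinal cord markers lay near the low end of the scale, at array means of 4.82 to 5.04 at day 7 and 4.81 to 5.07 in naive rats. Satellite glial Kcnj10, a potassium channel, was also at a low level, 4.60 to 4.98 at day 7 and 4.54 to 4.78 in naive rats, while Fabp7 and Glul were well measured. Cdh19, Mylpf, Hba-a2 and Cd79a were not measured under those names. Skeletal muscle transcripts were high on day 7 replicate 7 (list mean 8.30, against 6.36 to 6.92 on the other day 7 arrays) and on naive replicate 1 (8.58, against 6.40 to 6.57). The rat codes in the labels begin with AJ for 5 day 7 and 2 naive rats and with AK for 2 day 7 and 3 naive rats. What these letters mean is not stated, and values within each are given for many of the genes and lists below.

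No transcript differed between day 7 and naive ganglia beyond the spread between rats by the test over all probe sets. With limma, fitted on all 19 arrays, an adjusted p under 0.05 was met by 0 of 31042 probe sets (0.0%), and the smallest adjusted p was 0.143. At an unadjusted p under 0.05 stood 2700 probe sets (8.7%), of which 1147 were higher (3.69%) and 1553 lower (5.0%) at day 7, where 1552 would be met if nothing differed. Differences were small. Their median size over all probe sets was 0.07 log2 units with a median standard error of 0.080, and 21 probe sets differed by more than 2-fold, 9 higher and 12 lower. All 7 day 7 arrays lay above all 5 naive arrays for 59 probe sets (0.19%) and below them for 78 (0.251%), together 137 (0.441%). With each gene taken at its brightest probe set alone, this held for 76 of 14217 genes (0.535%). The 137 had adjusted p between 0.143 and 0.861 with limma, sizes of 0.06 to 0.81 and a median size of 0.27. Of these, 96 carried a single gene symbol, 44 higher and 52 lower, and 34 had a mean level under 6, where 39.8% of all probe sets lie. Each of the 137 has the same sign within both AJ and AK by construction, because non-overlap of all arrays holds in any part of them.

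**Figure D1:**
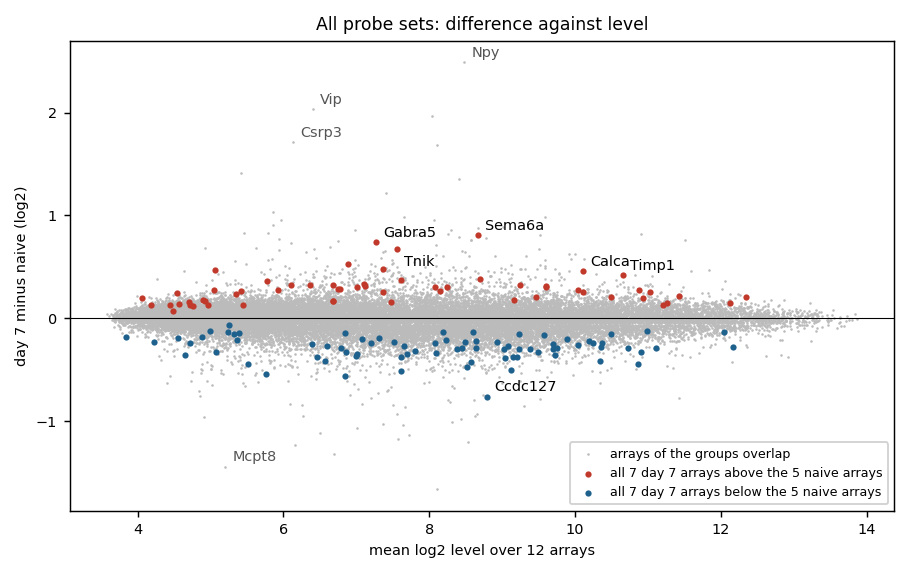
Each of the 31042 probe sets is a point, with its mean log2 level over the 12 arrays on the x axis and the day 7 minus naive log2 difference on the y axis; red and blue points are the 59 and 78 probe sets whose 7 day 7 arrays all lie above or all below the 5 naive arrays. Most non-overlapping probe sets differ by under 0.5 log2 units, while Npy, Vip and Csrp3, with the highest labelled differences, are grey because their arrays overlap.

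Neuropeptides listed for the axotomy response were the first group read, and the list holds Tac1 and Calca as well as Npy, Vip and Gal. Axotomy need not raise every member, so the count above naive is not a measure of that response. Of 13 measured members 12 stood above naive on average (92.3%, against 48.7% of all 14217 genes taken at 1 probe set each), 4 of them at an unadjusted p under 0.05 (3.57% of all genes), and the median difference was 0.14 against 0.00 over all genes. Npy, which encodes neuropeptide Y, had a lowest, median and highest day 7 level of 6.88, 9.68 and 11.76, against 7.32, 6.91, 7.66, 6.79 and 6.48 in naive rats. Thus 6 of 7 day 7 arrays lay above every naive array and replicate 3 lay among them. The difference was 2.49 ± 0.78 (SE), a fold of 5.61, with a limma adjusted p of 0.426. Vip, which encodes vasoactive intestinal peptide, ran from 4.77 through a median of 7.57 to 9.80 at day 7, against 4.94 to 5.66 in naive rats. Again 6 arrays were above and replicate 4 was below every naive array, and the difference was 2.03 ± 0.86 (SE; limma adjusted p = 0.527). Gal, which encodes galanin, ran from 9.11 through 10.10 to 11.38 at day 7, against 8.81 to 9.32 in naive rats, with 4 day 7 arrays above all naive arrays and a difference of 0.98 ± 0.40 (SE). Tac1, which encodes substance P, stood at 0.37 ± 0.17 (SE), but at -0.03 within AJ and 0.67 within AK. For the group as a whole the counts differed by rat code: 7 of 13 members stood above naive within AJ, with a median of 0.02, and 13 of 13 within AK, with a median of 0.29. Without day 7 replicate 2 the 4 at an unadjusted p under 0.05 became 1, with 12 of 13 above and a median of 0.14 as before.

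Injury-related transcription factors were spread over both directions. Of 22 measured members 13 stood above naive (59.1%, against 48.7% of all genes), and the median was 0.05. Among them 3 were at an unadjusted p under 0.05 (3.57% of all genes were higher at that level). Atf3, a leucine-zipper factor induced in axotomised neurons, had levels of 9.69, 11.15, 7.95, 7.28, 7.88, 9.18 and 10.17 on day 7 replicates 1 to 7, against 8.10, 8.17, 7.94, 8.44 and 8.17 in naive rats. Replicates 1, 2, 6 and 7 were above every naive array, replicates 4 and 5 were below every naive array, and the difference of 0.88 ± 0.61 (SE) had a limma adjusted p of 0.715. Myc, a growth-related factor, stood at 0.28 ± 0.12 (SE). Stat3, the effector of IL-6 family signalling, stood at 0.30 ± 0.14 by its brighter probe set and at 0.05 by the other. Without day 7 replicate 2 the 3 members at an unadjusted p under 0.05 became 0, and the median was 0.01. They also became 0 without naive replicate 4, with a median of 0.02.

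The axon injury effectors were the list with the highest median. Of 28 measured members 23 stood above naive (82.1%, against 48.7% of all genes), and the median difference was 0.29. Among them 8 were at an unadjusted p under 0.05 (3.57% of all genes were higher at that level). Array means of the list were 8.43, 8.70, 7.78, 7.76, 7.82, 8.03 and 8.33 on day 7 replicates 1 to 7, against 7.66 to 7.80 on the naive arrays. Replicates 1, 2, 6 and 7 therefore lay well above every naive array, replicate 5 just above the highest of them, and replicates 3 and 4 within their range. The median was 0.21 within AJ, 0.51 within AK, 0.19 without day 7 replicate 2 and 0.20 without the 2 arrays high in muscle transcripts, and 23 or 24 of 28 members stood above naive in each. Without naive replicate 4, 5 members were at an unadjusted p under 0.05 and the median was 0.28. Sprr1a, a small proline-rich protein linked to axon outgrowth, ran from 5.45 through 6.01 to 8.23 at day 7, against 5.22 to 5.62 in naive rats. Csrp3, a muscle LIM protein that injured sensory neurons also make, ran from 4.96 through 7.16 to 9.85 at day 7, against 4.71 to 5.57 in naive rats. It was 8.13 on the muscle-rich day 7 replicate 7 but 5.57 on the muscle-rich naive replicate 1. Neither gene separated the groups, with differences of 0.96 ± 0.49 and 1.71 ± 0.84 (SE).

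Among other effectors, Cacna2d1, Gadd45a and Flrt3 varied less between day 7 rats than Sprr1a and Csrp3. Cacna2d1, the calcium channel subunit bound by gabapentin, ran from 9.71 through 10.15 to 10.86 at day 7, against 9.31 to 9.85 in naive rats, with 5 of 7 arrays above all naive arrays. It differed by 0.63 ± 0.17 (SE; limma adjusted p = 0.406). Gadd45a, a stress and DNA damage response gene, ran from 8.26 through 8.86 to 9.56 at day 7, against 7.46 to 8.49 in naive rats, a difference of 0.76 ± 0.23. Flrt3, a leucine-rich repeat adhesion protein, differed by 0.46 ± 0.21. Serpina3n, a serine protease inhibitor, differed by 0.83 ± 0.30, with 7.54 on day 7 replicate 2 and 4.97 to 5.97 on the other day 7 arrays. Timp1 and Sema6a were the members whose arrays did not overlap, and are described with that group. Gap43, the growth cone protein often read as a sign of axon growth, was nearly level, at 12.67 to 12.95 at day 7 and 12.64 to 12.78 in naive rats.

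**Figure D2:**
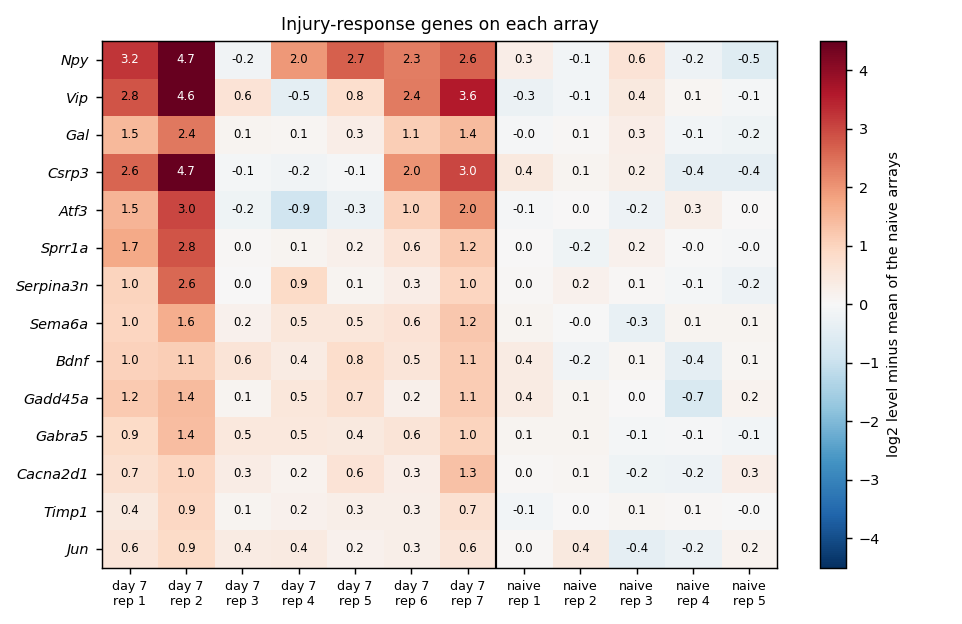
Cells give the log2 level of 14 genes on each of 7 day 7 and 5 naive arrays, as the difference from the mean of the naive arrays. The genes are from the injury lists, except Bdnf and Gabra5, which are in none of them. Red runs through day 7 replicates 1, 2, 6 and 7 for Gal, Csrp3 and Atf3. Gabra5, Timp1 and Sema6a were picked as non-overlapping and so are above every naive array on all 7 day 7 arrays.

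Because Jun and Atf3 bind AP-1 and CRE sites, the promoters of the 3 injury lists are shown where they hold such letters. RefSeq promoters of build GRCr8, from 250 bases before to 50 after each start, were at hand for 49 of 66 listed genes. An exact AP-1 match (TGAGTCA or TGACTCA, which are each other's reverse complement, so both strands are covered) was present in 5 of 49 (10.2%), against 1245 of 27457 promoters in all (4.53%). The 5 were Sprr1a, Plaur, Nts, Anxa2 and Nos1, with log2 differences at day 7 of 0.96, 0.32, 0.28, 0.08 and -0.05. The CRE palindrome TGACGTCA, which overlaps neither AP-1 form, was also present in 5 of 49 (10.2%), against 525 in all (1.91%), namely Sst, Il6, Jund, Tubb2a and Nos1. Their differences were 0.29, 0.11, -0.04, -0.04 and -0.05. The sequences below are those of the AP-1 bearing members with the highest day 7 differences, Sprr1a at chr2:180752576-180752875 on the minus strand and Plaur, which encodes the urokinase receptor, at chr1:89181113-89181412 on the plus strand, with AP-1 letters in capitals.
Sprr1a: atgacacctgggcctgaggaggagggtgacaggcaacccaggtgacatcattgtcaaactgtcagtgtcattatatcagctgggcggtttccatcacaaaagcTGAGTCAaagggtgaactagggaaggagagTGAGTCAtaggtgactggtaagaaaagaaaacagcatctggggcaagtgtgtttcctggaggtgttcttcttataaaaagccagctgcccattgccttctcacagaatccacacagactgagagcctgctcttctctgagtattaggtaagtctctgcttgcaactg
Plaur: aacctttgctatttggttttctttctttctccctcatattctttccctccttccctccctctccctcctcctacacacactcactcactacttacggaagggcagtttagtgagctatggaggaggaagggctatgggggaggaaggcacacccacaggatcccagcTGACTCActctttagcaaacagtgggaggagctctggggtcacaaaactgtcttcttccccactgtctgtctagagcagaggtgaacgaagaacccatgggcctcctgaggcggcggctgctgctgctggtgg
Sprr1a held 2 matches and Plaur 1, and no match in such a window says only that these letters are not in it.

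Of the 9692 genes with a single probe set, 52 had arrays that did not overlap (0.537%). Agreement between probe sets was then examined for the 4525 genes with more than 1. All probe sets of a gene lay on the same side of naive for 1998 (44.2%). Among the 3061 genes with exactly 2 probe sets this held for 1596 (52.1%), and for 1062 of 1928 (55.1%) where both had a mean of at least 6. No gene had 2 or more non-overlapping probe sets (0.0%), and 44 had 1 (0.972%). Of the 90 other probe sets of those genes, 66 lay on the same side, 14 of them at an unadjusted p under 0.05, 1 was at that level in the opposite direction, and 29 had a mean under 6. All probe sets on the same side with 1 not overlapping were met in 27 genes (0.597%), 11 higher (0.243%) and 16 lower (0.354%). Every probe set at an unadjusted p under 0.05 in the same direction was met in 29 genes (0.641%), 19 higher (0.42%) and 10 lower (0.221%). Of the 1464 genes with 3 or more probe sets this held for 2 (0.137%), Jun above naive and Ccdc127 below.

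Jun, the AP-1 transcription factor, differed by 0.46 ± 0.13, 0.39 ± 0.14 and 0.30 ± 0.14 (SE) by its 3 probe sets, the brightest last. The first ran from 7.29 through 7.48 to 7.95 at day 7, against 7.13, 7.52, 6.69, 6.83 and 7.23 in naive rats. Naive replicate 2 lay within the day 7 range. Without it Jun had 2 non-overlapping probe sets, which follows from leaving out the overlapping array. Ccdc127, a coiled-coil protein, differed by -0.76 ± 0.14, -0.53 ± 0.18 and -0.23 ± 0.10 (SE). Its brightest probe set ran from 8.01 through 8.55 to 8.76 at day 7, against 9.22, 9.26, 9.28, 8.91 and 9.47 in naive rats. The groups did not overlap, with 0.15 between the nearest arrays, yet the limma adjusted p was 0.176. Among genes with exactly 2 probe sets, those of Bdnf, Txnrd1, Rasgrp2, Hnrnph3, Gfra1, Col1a2, Col5a2, Kcnk10 and Gzmb were all at an unadjusted p under 0.05 in the same direction, a set named after the values were seen.

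**Figure D3:**
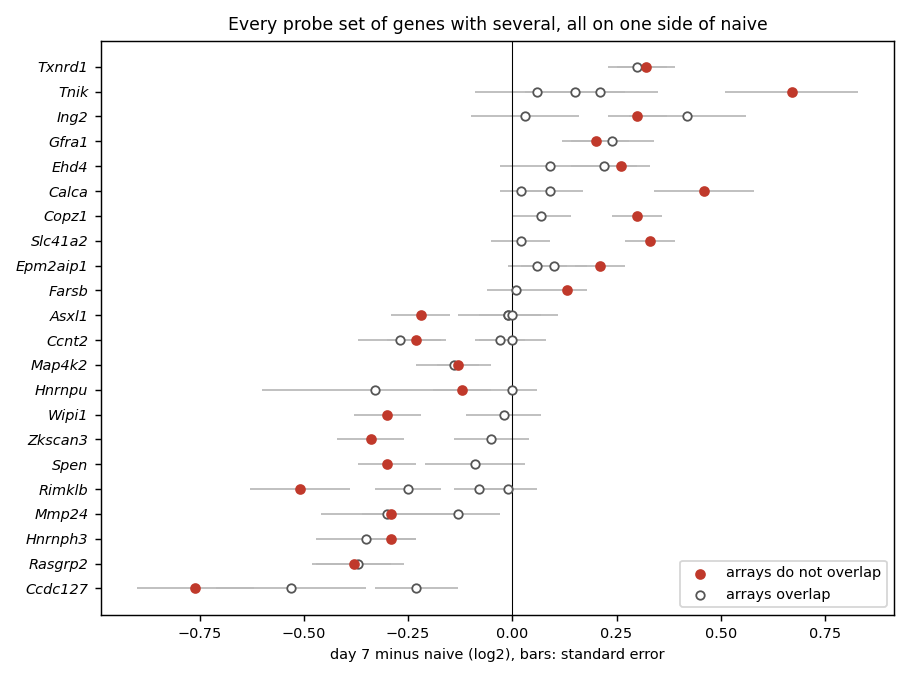
Day 7 minus naive log2 differences with their standard errors are drawn for every probe set of 22 genes whose probe sets all lie on the same side of naive and of which 1 does not overlap (filled). The probe sets of Txnrd1, Gfra1, Rasgrp2 and Hnrnph3 lie close together, whereas those of Tnik, Calca and Rimklb are spread from near 0 to over 0.4 in size.

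Among genes whose day 7 arrays all lay above naive were a receptor subunit and secreted proteins. Gabra5, which encodes the alpha-5 subunit of the GABA-A receptor and has a single probe set, was at 7.71, 8.22, 7.31, 7.30, 7.27, 7.42 and 7.85 at day 7, against 6.98, 6.98, 6.76, 6.78 and 6.71 in naive rats. The nearest arrays of the groups were 0.29 apart, and the difference was 0.74 ± 0.15 (SE), a fold of 1.67, with a limma adjusted p of 0.178. It stood at 0.65 at day 14. Other receptors of its list did not share this: of 36 measured GABA, glutamate, opioid and related receptors 20 stood above naive (55.6%) with a median of 0.01. Timp1, an inhibitor of matrix metalloproteinases, ran from 10.52 through 10.68 to 11.34 at day 7, against 10.29 to 10.49 in naive rats, a difference of 0.42 ± 0.14. Day 7 replicates 3, 4 and 5 were at 10.52, 10.62 and 10.68, and their place above naive follows from the choice of a non-overlapping gene. Calca, which encodes calcitonin gene-related peptide, did not overlap by its middle probe set (10.10 through 10.34 to 10.50 at day 7, against 9.52 to 10.06 in naive rats; difference 0.46 ± 0.12). Its brightest probe set stood at 0.02 ± 0.05 and its dimmest at 0.09 ± 0.08.

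Guidance and signalling genes formed the next group. Sema6a, a transmembrane semaphorin, had the largest non-overlapping difference, 0.81 ± 0.24 (SE; limma adjusted p = 0.416). It ran from 8.40 through 8.79 to 9.81 at day 7, against 8.31, 8.16, 7.85, 8.30 and 8.32 in naive rats. A second Sema6a probe set stood at 0.49 ± 0.26 and 3 others, all dim at 4.28 to 5.45 on these arrays, at -0.07 to 0.10. Tnik, a kinase that acts on the cytoskeleton and on Wnt signalling, ran from 7.42 through 7.64 to 8.27 at day 7, against 6.77 to 7.37 in naive rats, a difference of 0.67 ± 0.16. Its other probe sets stood at 0.21, 0.15 and 0.06. Gfra1, the GDNF receptor subunit that binds the ligand, ran from 10.92 through 10.98 to 11.20 at day 7, against 10.72 to 10.88 in naive rats. Its probe sets differed by 0.20 ± 0.08 and 0.24 ± 0.10. In the other direction stood Rasgrp2, an exchange factor for Rap1, whose non-overlapping probe set ran from 7.21 through 7.48 to 7.73 at day 7, against 7.73 to 7.99 in naive rats, with nearest arrays less than 0.01 apart. Its probe sets differed by -0.38 ± 0.09 and -0.37 ± 0.11. Rtn4r, the Nogo receptor that restrains axon growth, stood at -0.14 ± 0.05 by a probe set of low level (5.25 to 5.39 at day 7, 5.42 to 5.50 in naive rats), and its other probe sets at -0.11 and -0.04.

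**Figure D4:**
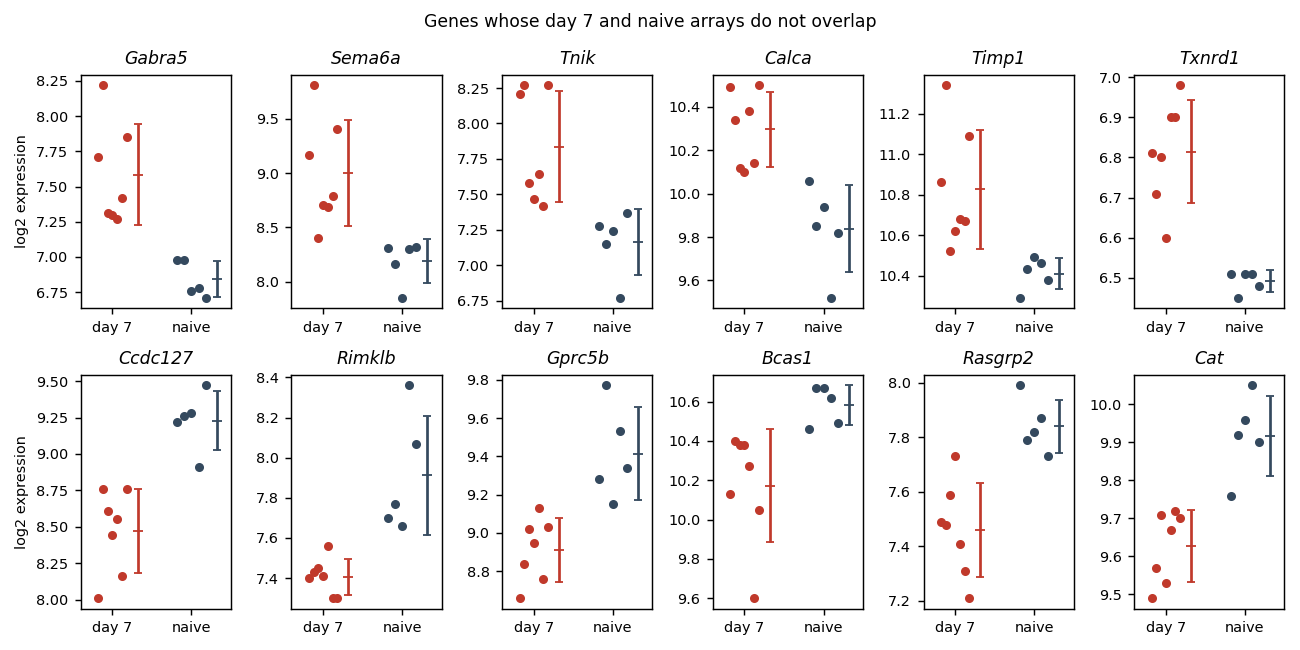
Points are log2 levels on each of 7 day 7 and 5 naive arrays for 12 genes whose arrays do not overlap, and bars the mean and SD of each group; each panel has its own y axis. Gabra5 has the widest gap of these panels, 0.29 between the nearest arrays, and Rasgrp2 almost none.

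Redox and protein-handling genes were also among the non-overlapping ones. Txnrd1, cytosolic thioredoxin reductase, ran from 6.60 through 6.81 to 6.98 at day 7, against 6.45 to 6.51 in naive rats, a difference of 0.32 ± 0.07 (SE). A brighter probe set differed by 0.30 ± 0.07 and overlapped only through naive replicate 4, which was at 10.89 beside 10.70 to 11.09 at day 7. Cat, catalase, stood the other way at -0.29 ± 0.06, with 9.49 to 9.72 at day 7 and 9.76 to 10.05 in naive rats. Of 28 measured Nrf2 antioxidant targets, the list that holds both, 20 stood above naive (71.4%) with a median of 0.02, but 13 within AJ and 15 without day 7 replicate 2. Psmd8, a proteasome regulatory subunit, ran from 10.86 to 11.39 at day 7, against 10.48 to 10.84 in naive rats, a difference of 0.28 ± 0.09. Of 32 proteasome subunits 24 stood above naive (48.7% of all genes did), with a median of 0.07. Higher at an unadjusted p under 0.05 were 5 and lower 1 (3.57% and 6.38% of all genes). Naive replicate 4 was lowest for the list at 11.05, against 11.25 to 11.32 on the other naive arrays and 11.20 to 11.43 at day 7. Without that array the counts were 21 above, 2 higher and 1 lower, and within AJ 17 stood above. Ogg1, the glycosylase that removes oxidised guanine, and Samhd1, a nucleotide hydrolase, stood at 0.27 ± 0.06 and 0.29 ± 0.06.

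Vesicle and membrane genes above naive on all 7 arrays included Copz1, a coat protein of Golgi vesicles (0.30 ± 0.06, with a brighter probe set at 0.07), and Ehd4, an endocytic recycling ATPase (0.26, 0.22 and 0.09 by 3 probe sets). Sytl3, a synaptotagmin-like effector of Rab27, stood at 0.32 ± 0.09 and Rab33a, a small GTPase, at 0.28 ± 0.10. Slc41a2, a magnesium transporter, stood at 0.33 ± 0.06 by 1 probe set and at 0.02 by a brighter one. Ing2, a chromatin reader, stood at 0.30, 0.42 and 0.03. Steap1, Tdh and Nosip, each with a single probe set, stood at 0.37, 0.32 and 0.30. Csnk1d, a casein kinase of the clock, did not overlap by 1 of 5 probe sets (0.31), and Kif16b, an endosomal kinesin, by 1 of 5 (0.29). Cxcl11, a chemokine at a low level of 5.38 to 5.80 at day 7 and 5.11 to 5.37 in naive rats, stood at 0.27 ± 0.09.

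Other named genes lay below naive on all 7 arrays. Bcas1, a protein of myelinating cells, ran from 9.60 through 10.27 to 10.40 at day 7, against 10.46 to 10.67 in naive rats, a difference of -0.41 ± 0.12 (SE). Gprc5b, an orphan G protein-coupled receptor, ran from 8.66 through 8.95 to 9.13 at day 7, against 9.15 to 9.77 in naive rats, a difference of -0.50 ± 0.12. Abca8a, a lipid transporter, was at 11.89 to 12.11 at day 7 and 12.24 to 12.46 in naive rats. Mmp24, a membrane-bound metalloproteinase, stood at -0.29, -0.30 and -0.13 by 3 probe sets. Hnrnph3, an RNA-binding splicing protein, stood at -0.29 ± 0.06 and -0.35 ± 0.12, and Rimklb, an enzyme that joins glutamate to citrate or aspartate, at -0.51, -0.25, -0.08 and -0.01. Spen, a transcriptional repressor, averaged 9.57 at day 7 and 9.88 in naive rats by its non-overlapping probe set, and its probe sets stood at -0.30 and -0.09. Zkscan3, a zinc finger factor, stood at -0.34 and -0.05, and Ccnt2, a cyclin of transcription elongation, at -0.23, -0.27, -0.03 and 0.00. Wipi1, an autophagy protein, stood at -0.30 and -0.02, and Map4k2, a stress kinase, at -0.13 and -0.14. Erich3, Caskin2, Nherf4, Rpl37-ps2, Gtpbp2, Ssh3, Ell and Btg1, each with 1 probe set, stood between -0.39 and -0.29. Caskin2 and Ssh3 had a naive group stretched by replicate 4, at 9.86 and 8.53.

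Neurotrophin and growth factor genes were of interest because sprouting of nociceptors depends on nerve growth factor. Of 33 measured members 13 stood above naive (39.4%, against 48.7% of all genes), and the median was -0.03. Higher at an unadjusted p under 0.05 were 2 and lower 4 (3.57% and 6.38% of all genes). Without naive replicate 4, 17 stood above, 2 were higher and 2 lower at that level, and the median was 0.00. Within AJ 18 stood above with 0 lower at that level, and within AK 11 with 3 lower. Bdnf, a neurotrophin that nerve growth factor induces in sensory neurons, was at 8.99, 9.03, 8.51, 8.30, 8.74, 8.47 and 9.08 at day 7, against 8.32, 7.78, 8.04, 7.53 and 8.03 in naive rats. The difference was 0.79 ± 0.16 (SE; limma adjusted p = 0.176). Day 7 replicate 4 and naive replicate 1 overlapped by 0.02. Without naive replicate 1 both Bdnf probe sets were non-overlapping, which follows from leaving out the overlapping array. Without that array 463 probe sets did not overlap, in place of 137. The dimmer probe set was at 6.18 to 6.32 at day 7 and 5.74 to 6.20 in naive rats, a difference of 0.26 ± 0.08 (SE). Egfr, the epidermal growth factor receptor, stood at -0.50 ± 0.19 by its brightest probe set and at -0.18 and 0.06 by dimmer ones. Sort1, the neurotrophin co-receptor sortilin, stood at -0.22 ± 0.09 and -0.08, and Vegfa, a vascular growth factor, at -0.22 ± 0.08 and 0.02.

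Myelin genes of Schwann cells lay below naive nearly throughout. Of 22 measured members 20 stood below and 2 above (9.09%, against 48.7% of all genes), 7 were lower at an unadjusted p under 0.05 (6.38% of all genes), and the median was -0.22. Array means of the list were 9.38 to 9.92 at day 7 and 9.71 to 10.03 in naive rats, so the groups overlapped. Mag, myelin-associated glycoprotein, ran from 6.04 through 6.43 to 6.90 at day 7, against 6.49, 6.97, 7.02, 7.44 and 6.67 in naive rats, a difference of -0.51 ± 0.15 (SE). Fa2h, the enzyme that hydroxylates myelin lipids, stood at -0.38 ± 0.11, and Sox10, the glial master transcription factor, at -0.31 ± 0.13. S100b, a glial calcium-binding protein, stood at -0.15 ± 0.06 with 6 of 7 day 7 arrays below every naive array. Cadm4 and Cntnap1, named after their values were seen, were the 2 above, at 0.01 and 0.04. Of these, Cntnap1 is a member of the list but encodes a protein of the axon. The counts differed by rat code: within AJ 14 of 22 stood below with a median of -0.06 and 1 at an unadjusted p under 0.05, and within AK 21 of 22 with a median of -0.50 and 14 at that level. Without naive replicate 4 the 7 became 4, with 20 of 22 below and a median of -0.23. The repair and immature Schwann cell list had a median of 0.02, with 16 of 23 above naive (69.6%). At an unadjusted p under 0.05, 4 members were higher and 0 lower (3.57% and 6.38% of all genes). The 4 became 2 without day 7 replicate 2 and 1 without naive replicate 4. In this list Ccl2 stood at 0.48 ± 0.19 and Id2 at 0.30 ± 0.12.

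Collagen and matrix genes lay mostly below naive as well. Of 56 measured members 42 stood below naive and 14 above (51.3% of all genes stood below), and the median was -0.13. Lower at an unadjusted p under 0.05 were 10 and higher 2 (6.38% and 3.57% of all genes). Col1a1, a chain of type I collagen, ran from 10.90 through 11.14 to 11.45 at day 7, against 11.38, 11.32, 11.53, 12.18 and 11.71 in naive rats, a difference of -0.48 ± 0.13 (SE). Col4a1 and Col4a2, chains of the basement membrane collagen, stood at -0.48 ± 0.15 and -0.41 ± 0.13, and the highest array of both was naive replicate 4, at 11.56 and 10.48. Second, dimmer probe sets of Col1a1 and Col4a1 stood at -0.17 ± 0.11 and -0.32 ± 0.16, the latter at 0.10 within AJ. Col1a2 stood at -0.28 and -0.34 and Col5a2 at -0.31 and -0.27 by 2 probe sets each. The 2 higher were Timp1 and Spp1, which encodes osteopontin and differed by 0.58 ± 0.18. Without naive replicate 4, 38 of 56 stood below, 6 of them at an unadjusted p under 0.05, with a median of -0.05. Within AJ 26 of 56 stood below with a median of 0.01, and within AK 45 of 56 with a median of -0.20. In the same arrays the 3' minus 5' signal of Gapdh and Actb control probe sets was 3.16 to 3.38 at day 7, against 3.69 on naive replicate 4, 3.52 on naive replicate 3 and 3.26 to 3.32 on the others. A fit with that signal as a covariate gave a list median of -0.04.

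Growth cone genes lay evenly on both sides of naive. Of 36 measured members 18 stood above naive and 18 below, with a median of 0.00. Among them 3 were higher at an unadjusted p under 0.05 (3.57% of all genes). Within AJ 23 of 36 stood above, within AK 13, and without the muscle-rich arrays 12. The 3 were Cntn1, an axonal adhesion protein (0.32 ± 0.12), Basp1, a growth cone protein partnered with Gap43 (0.24 ± 0.09), and Pfn1, which binds actin (0.24 ± 0.09). For Cntn1 and this Basp1 probe set, 6 of 7 day 7 arrays lay above every naive array. A second, dimmer Basp1 probe set stood at 0.02 ± 0.08. Axon guidance genes were as even, with 19 of 41 above naive (46.3%) and a median of -0.01, and with 25 above within AJ and 18 within AK. Beside Sema6a stood Sema5a, at -0.33 and -0.30 by its brighter probe sets and 0.06 and 0.02 by dim ones, and Sema4d at -0.26 ± 0.13. Neurofilament genes and sensory neuron identity genes ranged from -0.15 to 0.13, with none of the 7 and 17 measured at an unadjusted p under 0.05.

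Ion channel lists had medians close to 0. Of 25 sodium and calcium channel genes 13 stood above naive with a median of 0.01, of 25 TRP, acid-sensing and purinergic genes 13 with a median of 0.00, and of 40 potassium channel genes 17 with a median of -0.01. By rat code the counts of sodium and calcium channel genes were opposed, with 18 of 25 above within AJ (median 0.04) and 5 of 25 within AK (median -0.07). Potassium channel genes had 21 of 40 above within AJ and 14 within AK. Kcnk10, a leak potassium channel subunit, stood at 0.32 ± 0.08 (SE) and 0.18 ± 0.06, both at low levels of 4.92 to 6.08. Kcna5 and Kcnc1, voltage-gated potassium channel subunits, stood at -0.28 ± 0.10 and -0.24 ± 0.11, and Kcnmb4, a subunit of calcium-activated potassium channels, at 0.20 ± 0.09. Asic1, an acid-sensing channel, stood at -0.27 ± 0.11, with 9.18 on naive replicate 4 and 8.36 to 8.56 on the other naive arrays, and its other 3 probe sets were at -0.05 to 0.07. Synaptic vesicle genes had 13 of 30 above naive and a median of 0.00.

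Genes of the primary cilium lay mostly below naive, 22 of 30 measured with 8 above (26.7%, against 48.7% of all genes), and the median was -0.07. Lower at an unadjusted p under 0.05 were 4 and higher 0 (6.38% and 3.57% of all genes). The 4 were BBSome subunits, which carry membrane proteins in cilia: Bbs1 at -0.37 ± 0.15, Bbs4 at -0.34 ± 0.11, Bbs5 at -0.28 ± 0.08 and Bbs2 at -0.16 ± 0.06 (SE). Bbs5 ran from 6.40 to 6.74 at day 7, against 6.71 to 7.04 in naive rats, so a single pair of arrays overlapped. A second Bbs4 probe set stood the other way, at 0.20 ± 0.13, and a second, dim Bbs1 probe set at -0.03. The list median was -0.07 within AJ and -0.06 within AK. Immediate early genes also lay below, 19 of 26 measured, with a median of -0.12 (-0.16 within AJ and -0.02 within AK), and Nr4a1, an orphan nuclear receptor induced by activity, stood at -0.47 ± 0.13. Glucocorticoid and stress genes had 14 of 18 below with a median of -0.07 and Ddit4, an inhibitor of mTOR signalling, at -0.52 ± 0.21, but within AJ 7 of 18 were below. Among chaperones, 22 of 36 stood above, and 18 of 36 without naive replicate 4, while the inducible heat shock genes Hspa1a and Dnajb1 stood at -0.35 ± 0.10 and -0.24 ± 0.07, with a second Dnajb1 probe set at 0.08. Genes of oxidative phosphorylation, glycolysis and cytoplasmic ribosomes had list medians of 0.01, 0.02 and 0.00, but these differed by rat code. Within AJ 5 of 42 ribosomal genes stood above naive with a median of -0.11, and within AK 39 of 42 with a median of 0.14. For oxidative phosphorylation the counts were 23 of 66 (median -0.06) within AJ and 58 of 66 (median 0.08) within AK, and for glycolysis 14 and 7 of 21.

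Immune and vascular genes lay on both sides of naive. Macrophage genes had 12 of 28 above naive (42.9%) and a median of -0.03, lymphocyte genes 11 of 19 (57.9%) and 0.02, and interferon-stimulated genes 12 of 25 (48.0%) and -0.02. Without day 7 replicate 2, 7 of 28 macrophage genes stood above with a median of -0.15. Without naive replicate 4, 15 of 25 interferon-stimulated genes stood above with a median of 0.04, and lymphocyte genes had 8 of 19 above within AJ and 14 within AK. Chemokine, cytokine and complement genes had 28 of 44 above (63.6%, against 48.7% of all genes) and a median of 0.04. Higher at an unadjusted p under 0.05 were 3 and lower 0 (3.57% and 6.38% of all genes). Ccl2, a monocyte chemoattractant, ran from 8.92 to 9.95 at day 7, against 8.70 to 9.27 in naive rats. Gzmb, a protease of cytotoxic lymphocytes, stood at 0.45 ± 0.18 and 0.21 ± 0.10 (SE) by 2 probe sets at levels of 3.90 to 6.39, the highest on day 7 replicate 2. Endothelial and pericyte genes had 11 of 24 above naive (45.8%) and a median of -0.02. Within AJ 19 of 24 stood above (median 0.12), and within AK 5 of 24 (median -0.15). Vwf, the endothelial clotting factor, had the highest difference of that list, 0.65 ± 0.28. Its levels were 9.66, 9.72 and 8.95 on day 7 replicates 4, 5 and 6, against 7.75 to 8.35 in naive rats. The skeletal muscle list had 9 of 31 above naive and a median of -0.03, but 24 of 31 and 0.08 without the muscle-rich day 7 replicate 7 and naive replicate 1. Within AJ, which holds both of those arrays, 2 of 31 stood above naive (median -0.63), and within AK 25 of 31 (median 0.18), 13 of them at an unadjusted p under 0.05. The list of central nervous system genes had 9 of 13 above and a median of 0.03, with 5 of 13 above within AJ and 9 within AK.

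**Figure D5:**
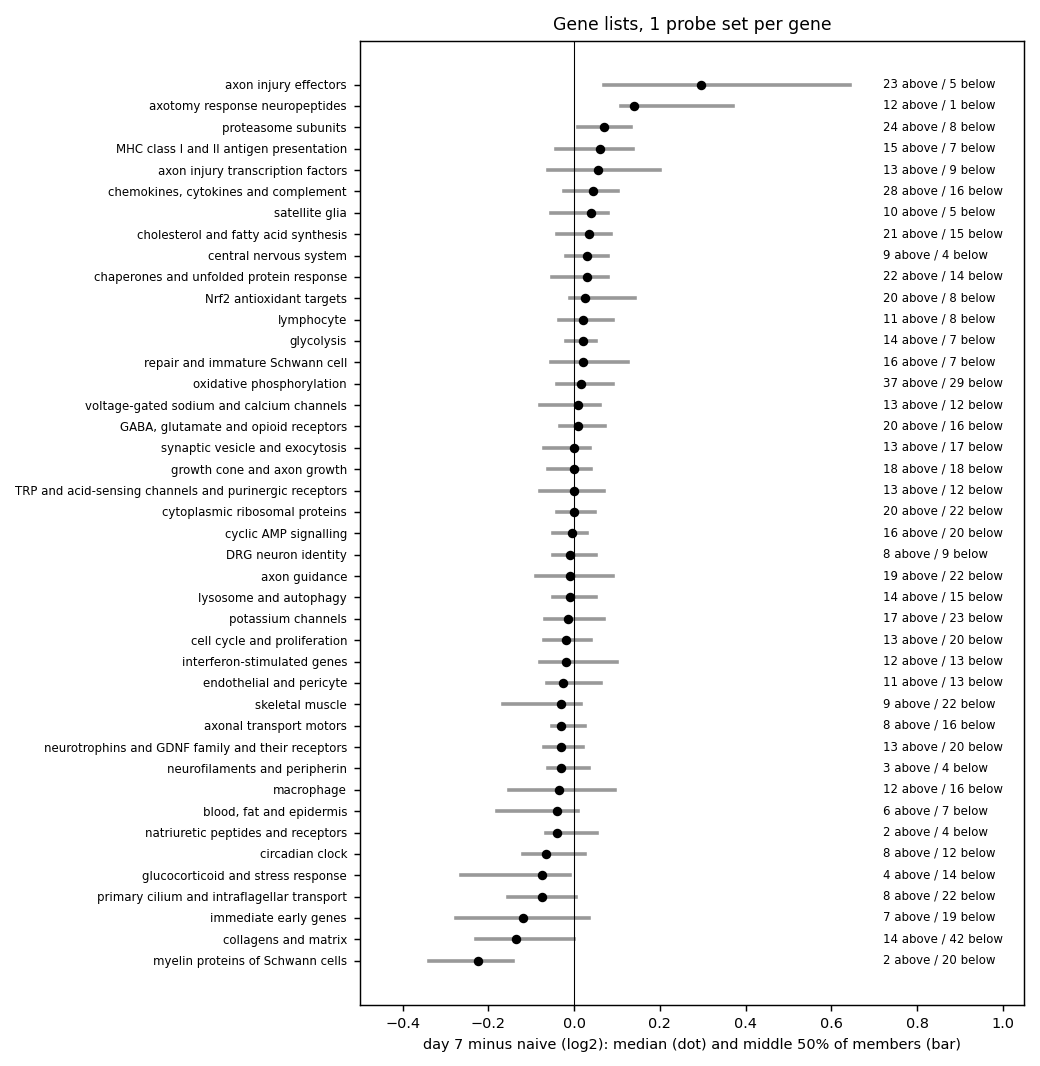
For each of 42 gene lists the dot is the median day 7 minus naive log2 difference over its members at 1 probe set per gene, the bar the interquartile range of the members, and the text the numbers above and below naive. Axon injury effectors are at the top with a median of 0.29 and myelin proteins at the bottom with -0.22, while growth cone, guidance and channel lists lie near 0.

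The day 14 arrays, set against the same naive arrays and so not independent of the above, stand beside day 7 as follows. The log2 differences of Npy, Vip, Gal and Atf3 from naive were 2.49, 2.03, 0.98 and 0.88 on day 7 arrays, and 2.98, 2.89, 1.46 and 1.62 on the 7 day 14 arrays. For Timp1, Spp1 and Gadd45a they were 0.42, 0.58 and 0.76 early, and 0.62, 0.77 and 0.94 late. Gabra5, Sema6a and Tnik had 0.74, 0.81 and 0.67 early, and 0.65, 0.76 and 0.71 late. Ccdc127 and Rasgrp2 had -0.76 and -0.38 early, and -0.83 and -0.47 late. Col1a1, Col4a2, Fa2h and Bcas1 had -0.48, -0.41, -0.38 and -0.41 early, and 0.15, 0.00, -0.10 and -0.19 late. Btg1 had -0.29 early, and -0.02 late. These pairs of differences share their naive arrays, and no test between the times was made for them.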

How the data were processed

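Single T11 ganglia were measured on Affymetrix arrays, 1 per rat. The deposited values are log2 levels per probe set, made by the authors with RMA per the submitters' processing notes (version not given in the sources used here), which corrects background, quantile-normalizes and summarises probes. Quantile normalization hides a shift shared by most transcripts. Arrays carry no read depth, so the number of arrays limits precision.

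Of 31099 probe sets, 57 controls were left out. Probe sets were named from GEO's platform annotation with symbols brought up to date in RefSeq (GRCr8); 20826 probe sets had 1 symbol, 436 several and 9780 none, and those with several were not named. limma 3.58.1 in R 4.3.3 (lmFit, eBayes, 4.2 prior and 16 residual degrees of freedom) was fitted on all 19 arrays in 3 groups, with Benjamini-Hochberg adjustment over 31042 probe sets and a threshold of 0.05. Unadjusted p are descriptions only. Counts and plots used Python 3.11.15, numpy 2.4.6, pandas 2.3.3 and matplotlib 3.10.9. For lists, each gene was read from its brightest probe set. The fit was checked on simulated data.

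Named were genes whose probe sets lay on the same side with at least 1 not overlapping (12 per direction, mean at least 6), 10 non-overlapping single-probe genes per direction, the 5 smallest p per direction, non-overlapping and up to 4 further members of each list, genes with 3 or more probe sets all at an unadjusted p under 0.05, and a fixed set. Members, lists and the rule were chosen with earlier results of these data known.

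Equal replicate numbers in the groups were checked as pairs: correlations of their deviations were 0.09, -0.04, -0.07, -0.15 and 0.33, so the numbers were not used as pairs.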

Additional observations from a re-analysis of the deposited data

Results flagged for a closer look

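Within the day 7 and the naive group, 338 sets of values (1 gene or 1 list mean in 1 group) were searched for an array far from the others by Dixon's criterion. It marked 23, where chance alone marks about 1 in 20, here 16.9.

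Day 7 replicate 7 was highest for 7 of them. Its value was 11.33 for Asns, asparagine synthetase, with the nearest other day 7 array at 11.1, 10.15 for Mvk, mevalonate kinase (nearest 9.79), and 11.39 for Psmd8 (nearest 11.05). Its list means were 11.02 for cholesterol and fatty acid synthesis (nearest 10.81), 7.70 for GABA, glutamate and opioid receptors (nearest 7.59), 8.97 for cyclic AMP signalling (nearest 8.87) and 8.30 for skeletal muscle (nearest 6.92).

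Day 7 replicate 2 was highest for Serpina3n at 7.54 (nearest 5.97), for the potassium channel subunit Kcnmb4 at 9.70 (nearest 9.46), and for the mean of the antigen presentation list at 9.32 (nearest 8.62). Day 7 replicate 1 was lowest for Abca8a at 11.89 (nearest 12.03), for Ssh3 at 7.44 (nearest 7.65), and for the mean of the neurotrophin list at 8.45 (nearest 8.54). Day 7 replicate 4 was lowest for Sox10 at 8.38 (nearest 8.82) and highest for the B cell receptor component Cd79b at 5.30 (nearest 5.14). Day 7 replicate 6 was lowest for the macrophage receptor Adgre1 at 4.95 (nearest 5.83) and for Bbs1 at 6.38 (nearest 6.98).

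Among naive arrays, replicate 4 was highest for Asic1 at 9.18 (nearest 8.56) and Caskin2 at 9.86 (nearest 9.34). It was lowest for the proteasome genes Psmb1 at 11.68 (nearest 12.18) and Psmc4 at 9.62 (nearest 10.08) and for the proteasome list mean at 11.05 (nearest 11.25). Naive replicate 1 was highest for the skeletal muscle list mean at 8.58 (nearest 6.57).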

How the results depend on the processing

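Over 24 settings and 168 named genes, 4004 of 4016 gene differences kept their direction and their side of the threshold. Of the others, 10 turned in sign and 2 (Grhl3) newly passed the threshold. Much of this was fixed in advance, because many of the genes were named by their values on these same arrays. A non-overlapping probe set cannot turn in sign when arrays are left out. As 0 probe sets passed the threshold on all arrays, keeping a side means still not passing it. Probe sets past an adjusted p of 0.05 with limma were 0 on all arrays, 2 within AJ (Pfdn6 and Myo15b), 2 with the 3' to 5' signal as covariate (Nrcam, and Grhl3 at -1.27), and 0 to 2 when single arrays were left out (2 without naive replicate 4, with Grhl3 at -1.22, 2 without day 7 replicate 6, and 1 each without naive replicates 1, 2 and 3), and it was 0 without naive replicate 1 and day 7 replicate 7 together. At an unadjusted p under 0.05 stood 1749 probe sets with the code prefix as a block, 1226 within AJ, 1303 with the covariate and 1296 genes for gene means, in place of 2700, and 1856 to 3698 with single arrays left out. Non-overlapping were 137 probe sets, but 77 genes for gene means. After cyclic loess renormalization of the same arrays they were 167, and only 99 of the 137 were among them. With fewer arrays there are more by construction, 167 to 463 without single arrays, the highest without naive replicate 1. They were 806 without both muscle-rich arrays, 2468 within AJ and 6753 within AK. Genes with 2 or more such probe sets, 0 on all 12 arrays, were 8, 64 and 281 in those 3 settings and 0 to 5 without single arrays (5 without naive replicate 1, namely Bdnf, Fli1, Rasgrp2, Tmem276 and Tpm3).

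Signs turned for Hsph1 (0.05), Sc5d (0.02) and Zeb2 (0.12) as gene means, for Tac1 (-0.03) and Vamp1 (0.00) within AJ, and for Ngfr (-0.04) without the muscle-rich arrays. Without single arrays, Gfap ranged from -0.04 to 0.35 and Ngfr from -0.02 to 0.07. A replicate block, although the numbers showed no pairing, left 0 probe sets past the adjusted threshold and 2509 at an unadjusted p under 0.05, with Ngfr at -0.01. List medians moved beyond the array spread in 30 of 1008 cases, among them the injury effectors (0.19 to 0.51 in those cases). The cause of these moves was not tested. Non-overlap has no value in settings that change the model alone.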

Other observations

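Granulocyte and basophil genes varied among naive rats more than between the groups. S100a8, a calcium-binding protein of neutrophils, was at 5.47 to 7.33 at day 7, against 7.35, 5.66, 10.01, 6.28 and 8.02 in naive rats. S100a9, its partner, was at 6.84 to 9.82 at day 7, against 9.73, 6.39, 11.32, 8.52 and 10.17 in naive rats. Mcpt8, a basophil protease in mice, was at 4.03 to 5.28 at day 7, against 5.59, 3.98, 8.45, 4.65 and 7.51 in naive rats. Naive replicates 3 and 5 were the highest 2 arrays for each of these genes, and Fcnb, RatNP-3b and Ighvl1 had the same 2 highest arrays. Differences of these 6 genes ran from -1.44 to -1.07 and none had a limma adjusted p under 0.479.

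Grhl3, an epithelial transcription factor, was at 6.68 to 7.30 at day 7, against 8.55, 8.04, 7.98, 7.21 and 8.02 in naive rats. Only naive replicate 4 lay in the day 7 range, and the difference was -1.03 ± 0.19 (SE; limma adjusted p = 0.176). Cd7, a leukocyte surface protein, was at 6.47 to 8.83 at day 7, against 8.56 to 9.11 in naive rats, a difference of -1.01 ± 0.26.

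Some of the largest differences rested on a single probe set of a gene. RT1-Ba, an MHC class II chain, stood at 1.97 by 1 probe set and at -0.47, 0.07 and 0.05 by others. Eml1, a microtubule-associated protein, stood at 1.35 by 1 and at -0.04 and 0.02 by others. Zeb2, a transcription factor, stood at 1.22 by 1, with naive arrays from 4.15 to 9.19, and at -0.43 to 0.09 by the others.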
